A study of Arabidopsis thaliana with 24 samples.

Results

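The sodium and potassium transport genes described here are 10 loci of Arabidopsis thaliana, out of 32833 genes in the count table. They were chosen by locus: SOS1 (AT2G01980), SOS2 (AT5G35410), SOS3 (AT5G24270), HKT1 (AT4G10310), HAK5 (AT4G13420), NHX1 (AT5G27150), NHX2 (AT3G05030), NHX5 (AT1G54370), NHX6 (AT1G79610) and AVP1 (AT1G15690), and all 10 had a row. Whole seedlings, 9 days old, of the exa1-1 mutant (written exa1 here) and of the wild type Col-0 (WT) were exposed for 60 min to 1 of 4 conditions, which gave 8 groups of 3 libraries, 24 in all. In the salt set the groups were exa1 with 200 mM NaCl, WT with 200 mM NaCl, exa1 on MS medium and WT on MS medium. In the heat set they were exa1 at 39 °C, WT at 39 °C, exa1 at 23 °C and WT at 23 °C. The series text gives independent biological replicates without saying how cultures were kept apart, so the p-values speak only of the variation among these libraries. The exa1-1 line is a single mutant allele, and whole seedlings hold roots and shoots together.

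A plant cell under salt lowers sodium in its cytosol by sending it out across the plasma membrane or into the vacuole. In the SOS pathway the calcium sensor SOS3 binds the protein kinase SOS2, and the pair activates SOS1, a sodium/proton antiporter of the plasma membrane. HKT1 carries sodium out of the xylem sap in roots, and HAK5 takes up potassium with high affinity when it is scarce. NHX1 and NHX2 exchange sodium or potassium for protons at the vacuole, and NHX5 and NHX6 do so at endosomes and the Golgi. AVP1 is the proton-pumping pyrophosphatase of the vacuole, one source of the proton gradient that the exchangers use.

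The 250 bases before the annotated start of 4 of these genes are shown because those genes carried the clearest changes with NaCl: NHX1, NHX2 and NHX6 were higher and HKT1 was lower in both genotypes. Sequences were read from TAIR10.1 (RefSeq), 5′ to 3′ on the strand of the gene. Capitals mark letters that matched a searched motif on either strand.
NHX1, chr5:9553050-9553299, plus strand: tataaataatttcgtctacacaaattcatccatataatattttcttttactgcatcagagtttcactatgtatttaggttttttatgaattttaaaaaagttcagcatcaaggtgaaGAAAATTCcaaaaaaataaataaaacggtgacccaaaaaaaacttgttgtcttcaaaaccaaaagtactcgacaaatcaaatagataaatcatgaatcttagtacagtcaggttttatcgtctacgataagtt
NHX2, chr3:1397628-1397877, minus strand: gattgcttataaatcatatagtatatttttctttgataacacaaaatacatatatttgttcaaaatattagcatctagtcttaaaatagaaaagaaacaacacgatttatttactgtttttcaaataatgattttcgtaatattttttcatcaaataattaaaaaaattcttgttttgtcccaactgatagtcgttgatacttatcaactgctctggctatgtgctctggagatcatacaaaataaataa
NHX6, chr1:29957202-29957451, minus strand: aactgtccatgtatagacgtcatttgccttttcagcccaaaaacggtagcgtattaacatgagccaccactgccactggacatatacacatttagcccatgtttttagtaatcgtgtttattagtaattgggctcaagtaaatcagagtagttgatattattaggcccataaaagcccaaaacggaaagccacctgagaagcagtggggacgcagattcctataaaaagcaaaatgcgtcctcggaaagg
HKT1, chr4:6391604-6391853, plus strand: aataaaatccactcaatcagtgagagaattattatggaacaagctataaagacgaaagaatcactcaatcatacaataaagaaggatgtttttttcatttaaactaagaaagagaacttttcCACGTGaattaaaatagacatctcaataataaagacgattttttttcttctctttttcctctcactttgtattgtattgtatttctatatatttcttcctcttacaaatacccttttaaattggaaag

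In these letters the NHX1 window holds GAAAATTC, a paired heat shock element (GAANNTTC) at bases -133 to -126 counted back from the gene start. HKT1 holds CACGTG at bases -128 to -123, which contains the core of the abscisic acid response element (ABRE, ACGTG) on both strands. No searched motif was found in the windows of NHX2 and NHX6, and the NHX6 window also lies partly in the neighbouring gene AT1G79620. Over all 27443 genes with such a window, 22.9% held ACGTG, 9.6% held GAANNTTC, 7.1% held the dehydration response core (ACCGAC or GCCGAC) and 28.4% held the W-box core (TTGACC or TTGACT). Among the 10 genes, ACGTG was in 4 (SOS1, HKT1, AVP1 and HAK5), GAANNTTC in 2 (NHX1 and HAK5), the W-box core in 2 (SOS2 and AVP1) and the dehydration core in 1 (SOS1). These are matches of letters and show no binding.

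Libraries held 17600922 to 21557382 assigned reads. EXA1 (AT5G42950), which encodes a GYF-domain protein and is the gene named by the mutant, averaged 10.3 to 15.4 CPM (read counts relative to library totals adjusted by TMM) over the 4 exa1 groups and 71.8 to 148 CPM over the 4 WT groups. Pairs of libraries of 1 group differed by 1.67 to 2.2 times counting noise in the salt set (chi-square per degree of freedom) and by 3.5 to 24.2 times in the heat set. TMM factors were 0.59 to 0.616 in the 39 °C libraries and 1.09 to 1.32 in the rest. With scaling by library totals alone the median log2 response to 39 °C over all genes was -0.97 in both genotypes, against -0.09 in exa1 and -0.06 in WT with TMM. The median response to NaCl was then -0.16 in both, against -0.01 with TMM.

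The genes spanned a wide range of level. Per gene length (FPKM, group means), AVP1 was the most abundant in every group at 114 to 337 FPKM, and HAK5 the least abundant in every group at 0.0721 to 0.93 FPKM. NHX1 lay between 8.67 and 84.1 FPKM, NHX5 between 9.93 and 35.6, and NHX6 between 2.35 and 19.1. NHX2 ranged over 3.18 to 16.4 FPKM. The SOS genes had 1.44 to 6.79 FPKM for SOS1, 2.5 to 5.51 for SOS2 and 2.62 to 6.32 for SOS3, and HKT1 had 0.321 to 2.34. In reads per library HAK5 had 0 to 54 and HKT1 6 to 108, so both are known less precisely than AVP1, with 6133 to 22599 reads.

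**Figure D1:**
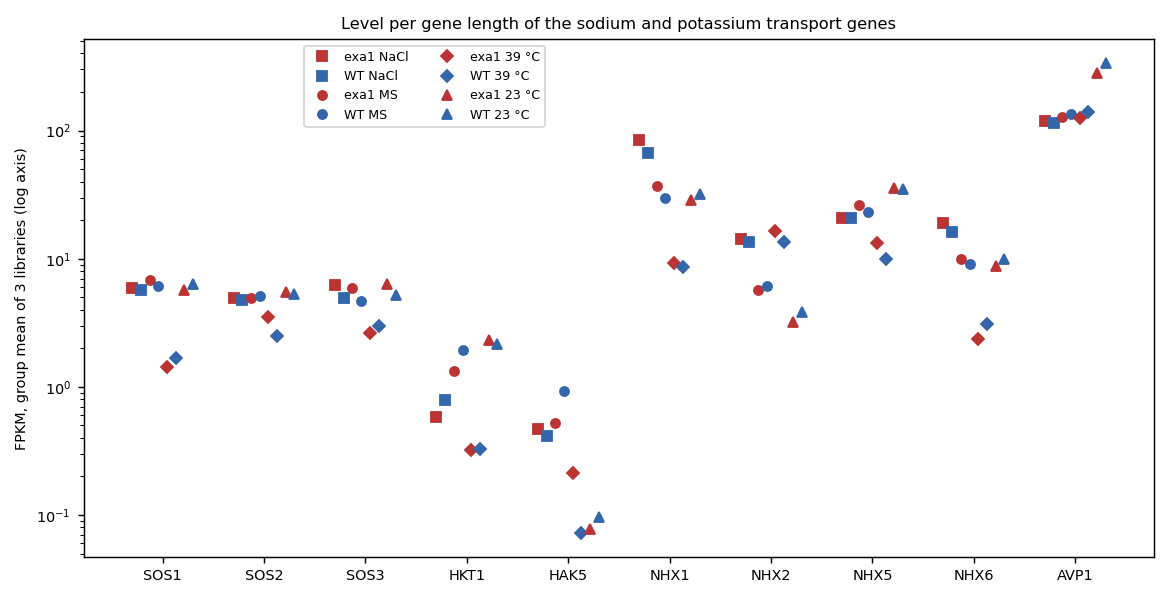
FPKM of each gene in the 8 groups (mean of 3 libraries, log axis, exa1 in red and WT in blue; squares NaCl, circles MS, diamonds 39 °C, triangles 23 °C). AVP1 lies above the other genes in every group, HAK5 lies below them, and the 39 °C groups of NHX2 lie above its 23 °C groups while those of NHX1 lie below.

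With NaCl, transcripts of the vacuolar exchangers NHX1 and NHX2 and of the endosomal exchanger NHX6 rose in both exa1 and WT, by 0.98 to 1.49 on the log2 scale. HKT1 fell by about 1 log2 unit in both genotypes. SOS1, the sodium exporter, and the kinase SOS2 passed the test in neither genotype, and the sensor SOS3 rose by a small amount. Of the 10 genes, 4 were called higher and 2 lower in exa1, where 37.1% of the 21759 tested genes were called higher and 37.9% lower (edgeR quasi-likelihood test, adjusted p under 0.05). In WT 4 were called higher and 3 lower, against 36.9% and 37.6% of all tested genes. The share of the 10 genes called was thus near that of all genes.

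Within the SOS pathway the levels moved little. SOS1 averaged 19.3 ± 1.5 CPM with NaCl and 19.4 ± 0.422 CPM on MS in exa1 (SD, n = 3), and 19.2 ± 0.568 and 17.8 ± 0.913 CPM in WT. Its log2 response was -0.03 ± 0.07 in exa1 (SE; edgeR adjusted p = 0.714) and 0.06 ± 0.08 in WT (0.506). SOS2 had responses of 0.15 ± 0.11 in exa1 (0.227) and 0.06 ± 0.11 in WT (0.609). SOS3 had 23.9, 23.5 and 23.5 CPM with NaCl in exa1, against 19.5, 21.2 and 18.6 CPM on MS. WT libraries had 18.7, 19.4 and 20.0 CPM with NaCl, against 15.5, 15.3 and 16.4 CPM on MS. The SOS3 libraries with NaCl lay above those on MS in each genotype, and its log2 response was 0.23 ± 0.07 in exa1 (edgeR adjusted p = 0.00283) and 0.25 ± 0.08 in WT (0.00224). With library-total scaling these calls were lost (0.07, adjusted p = 0.36 in exa1; 0.10, 0.248 in WT), and SOS1 was called lower in exa1 (-0.19, 0.0184). Responses that did not pass also changed sign with that scaling, to -0.10 (0.246) for SOS1 in WT and to -0.01 (0.956) in exa1 and -0.09 (0.481) in WT for SOS2.

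HKT1, the sodium retrieval transporter, had 0.867, 1.13 and 0.922 CPM with NaCl in exa1, against 1.78, 1.79 and 2.24 CPM on MS. The WT libraries had 1.38, 1.3 and 1.38 CPM with NaCl, against 1.88, 3.28 and 3.44 CPM on MS. All NaCl libraries lay below the MS libraries of the same genotype, and HKT1 fell by 1.02 ± 0.27 in exa1 (edgeR adjusted p = 0.000339) and by 1.12 ± 0.24 in WT (1.25e-05) on the log2 scale. In whole seedlings, fewer root cells and less RNA per root cell cannot be told apart. The 16 root markers, none of which was at 0 in any group, summed to 878 to 898 CPM with NaCl and 1650 to 1690 CPM on MS in exa1, and to 811 to 815 and 1850 to 1880 CPM in WT. Of these markers 11 fell in each genotype, while 3 rose in exa1 and 5 in WT. The 12 shoot markers, also none at 0, summed to 5350 to 5530 CPM with NaCl and 4050 to 4090 CPM on MS in exa1, and to 8660 to 8870 and 5060 to 5190 CPM in WT, with 8 called higher in each genotype and 4 lower in exa1 and 2 in WT. The part of these markers in the HKT1 result was not tested.

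HAK5, the potassium uptake transporter, was at few reads. It had 0.997, 0.922 and 1.36 CPM with NaCl in exa1, against 0.911, 0.953 and 1.35 CPM on MS, so the groups overlapped. In WT it had 0.936, 1.65 and 0.356 CPM with NaCl, against 1.99, 1.67 and 2.11 CPM on MS. Its log2 response was -0.02 ± 0.32 in exa1 (edgeR adjusted p = 0.961) and -1.04 ± 0.30 in WT (0.00107), where it fell. Without WT NaCl replicate 3 the WT call was lost (-0.60, adjusted p = 0.0749), and without WT NaCl replicate 2 the response was -1.63. The root marker sums given for HKT1 were lower in the same libraries, and their part here was not tested either.

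The vacuolar exchangers gave the clearest changes. NHX1 had 183, 190.0 and 181 CPM with NaCl in exa1, against 73.9, 68.5 and 71.0 CPM on MS. In WT it had 152, 147 and 151 CPM with NaCl, against 61.9, 52.8 and 59.9 CPM on MS. NHX1 thus rose by 1.35 ± 0.03 in exa1 (edgeR adjusted p = 5.49e-79) and 1.31 ± 0.04 in WT (9.9e-75) on the log2 scale, a 2.54-fold and a 2.48-fold change. NHX2 had 39.9, 36.2 and 35.5 CPM with NaCl in exa1, against 12.6, 12.8 and 13.4 CPM on MS. Those of WT had 35.3, 35.6 and 36.7 CPM with NaCl, against 16.5, 12.6 and 13.8 CPM on MS. It rose by 1.49 ± 0.07 in exa1 (2.91e-49) and 1.27 ± 0.07 in WT (1.94e-41). NHX1 and NHX2 share no identical run in their transcripts longer than 44 bases.

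Of the endosomal exchangers, NHX6 rose with NaCl. NHX6 had 32.0, 32.4 and 31.9 CPM with NaCl in exa1, against 14.6, 13.9 and 15.4 CPM on MS. In WT it had 27.9, 26.1 and 29.6 CPM with NaCl, against 14.5, 14.4 and 11.8 CPM on MS. It rose by 1.10 ± 0.07 in exa1 (edgeR adjusted p = 1.14e-33) and 0.98 ± 0.07 in WT (9.62e-28), with no overlap between NaCl and MS libraries. NHX5 averaged 33.4 ± 1.17 CPM with NaCl and 37.0 ± 1.31 CPM on MS in exa1, where it fell by 0.18 ± 0.06 on the log2 scale (0.00241; 0.0775 with all 24 libraries in 1 fit). In WT it averaged 34.6 ± 1.91 and 33.5 ± 1.9 CPM (adjusted p = 0.956), and with library-total scaling it was called lower there too (-0.16, 0.00971). The annotated NHX5 gene overlaps AT1G54360 on the opposite strand by 174 bases, and that gene had 558 to 1257 reads per library. Libraries were strand-specific per the labels, but no source used here gives the strand setting of the counting.

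AVP1, the vacuolar proton pump, moved little. It had 305, 321 and 315 CPM with NaCl in exa1, against 300.0, 297 and 294 CPM on MS. In WT it had 308, 307 and 304 CPM with NaCl, against 319, 315 and 310.0 CPM on MS. The log2 response was 0.05 ± 0.02 in exa1 (edgeR adjusted p = 0.0693; 0.045 with DESeq2; 0.07, 0.0176 without exa1 NaCl replicate 1) and -0.09 ± 0.02 in WT (0.000584), so AVP1 fell by a small amount in WT; this call was lost with all 24 libraries in 1 fit (-0.04, 0.589). The exa1 value turned with library-total scaling, to -0.11 (3.01e-05), whereas the WT value was then -0.24 (3.14e-18). The AVP1 gene overlaps the lncRNA AT1G05183 on the same strand by 181 bases (0 to 48 reads per library) and AT1G15700 on the opposite strand by 165 bases (83 to 249 reads).

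**Figure D2:**
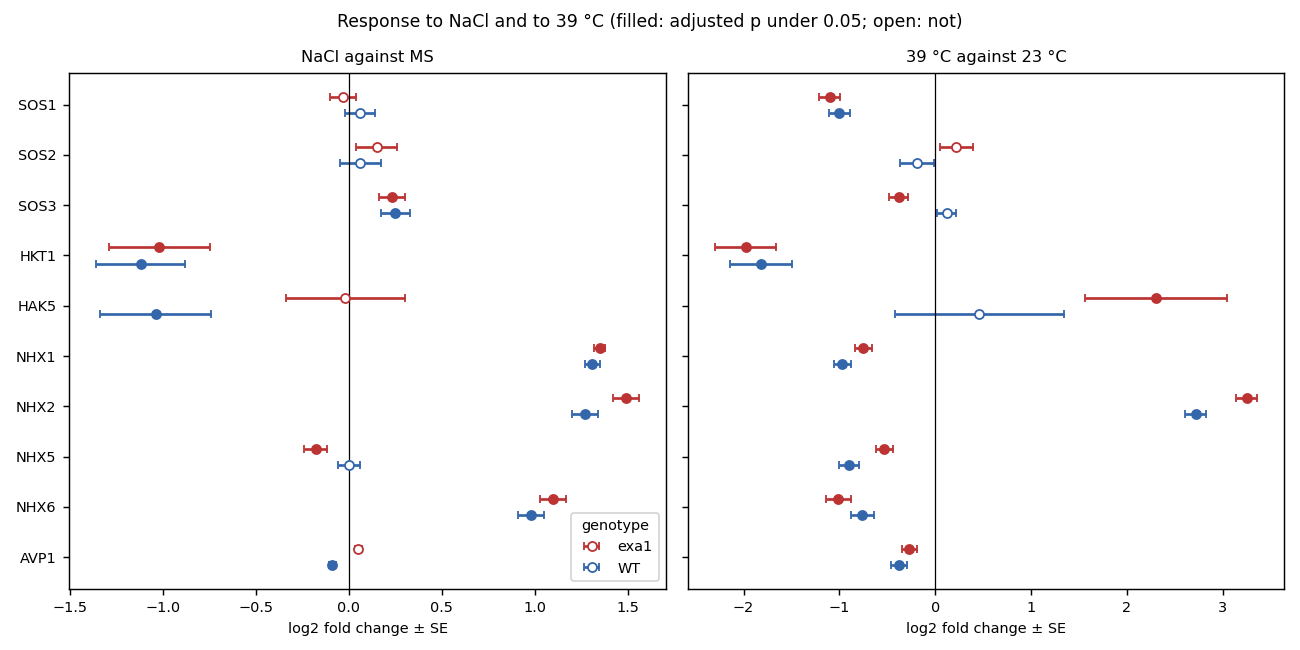
Log2 fold change ± SE of each gene with NaCl against MS (left) and at 39 °C against 23 °C (right), exa1 in red above WT in blue, filled where the adjusted p was under 0.05. NHX1 and NHX6 lie to the right of 0 with NaCl and to the left at 39 °C, while NHX2 lies to the right in both and HKT1 to the left in both.

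At 39 °C, NHX2 was the gene that rose in both genotypes, 9.52-fold in exa1 and 6.58-fold in WT, while its vacuolar partner NHX1 fell. SOS1, HKT1, NHX5, NHX6 and AVP1 also fell in both genotypes, by 0.27 to 1.98 on the log2 scale. SOS3 fell in exa1 and did not pass in WT, but the difference between genotypes did not pass its own interaction test. HAK5 was called higher in exa1 at a few reads, after a filter that it passed through 39 °C libraries alone, so this call is not read as a rise. In exa1 2 genes were called higher (NHX2 and, with that limit, HAK5) and 7 lower, against 36.3% and 39.7% of the 21196 tested genes. In WT 1 was called higher and 6 lower, against 36.6% and 38.6%. Median log2 responses were -0.46 in exa1 and -0.57 in WT over the 10 genes, against -0.09 and -0.06 over all tested genes.

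SOS1 had 9.04, 9.48 and 8.52 CPM at 39 °C in exa1, against 18.9, 20.2 and 19.4 CPM at 23 °C. The WT values were 10.2, 10.0 and 11.3 CPM at 39 °C, against 21.8, 21.9 and 20.8 CPM at 23 °C. It fell by 1.10 ± 0.11 in exa1 (edgeR adjusted p = 2.17e-08) and by 1.00 ± 0.11 in WT (6.78e-08) on the log2 scale, with no overlap of libraries. SOS2 was variable at 39 °C, at 9.97, 15.4 and 11.2 CPM in exa1 and 6.92, 7.46 and 11.8 CPM in WT. Its log2 responses were 0.22 ± 0.17 in exa1 (0.256) and -0.19 ± 0.18 in WT (0.343). With library-total scaling SOS2 was called lower in both, at -0.66 (0.00232) in exa1 and -1.10 (2.16e-05) in WT, and without WT 39 °C replicate 3 the WT value passed at -0.48 (0.0191).

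SOS3 had 19.7, 19.0 and 19.2 CPM at 39 °C in exa1, against 24.5, 25.0 and 26.2 CPM at 23 °C. In WT it had 25.2, 21.5 and 19.4 CPM at 39 °C, against 21.2, 20.8 and 20.2 CPM at 23 °C. It fell by 0.38 ± 0.10 in exa1 (edgeR adjusted p = 0.00242), and its WT response of 0.12 ± 0.10 did not pass (0.298). With library-total scaling SOS3 was lower in both genotypes, at -1.27 in exa1 (4.78e-10) and -0.79 in WT (4.94e-07). The sign of the WT response of SOS3 therefore depends on the scaling.

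HKT1 had 1.1, 0.811 and 1.19 CPM at 39 °C in exa1, against 3.59, 4.91 and 3.77 CPM at 23 °C. WT values were 1.17, 0.533 and 1.41 CPM at 39 °C, against 4.76, 2.83 and 3.73 CPM at 23 °C. HKT1 fell by 1.98 ± 0.32 in exa1 (edgeR adjusted p = 1.08e-05) and by 1.82 ± 0.32 in WT (3.14e-05) on the log2 scale. The root markers summed to 504 to 554 CPM at 39 °C and 1520 to 1740 CPM at 23 °C in exa1, and to 483 to 513 and 1680 to 1790 CPM in WT, and 12 of 16 fell in exa1 and 13 in WT. The shoot markers summed to 20100 to 22900 CPM at 39 °C and 12800 to 15600 CPM at 23 °C in exa1, and to 24800 to 28400 and 12700 to 14600 CPM in WT, although 8 of 12 fell in exa1 and 7 in WT and 4 rose in each. The part of these markers in the HKT1 result was not tested.

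HAK5 had 15, 15 and 4 reads at 39 °C in exa1, against 3, 5 and 4 reads at 23 °C. In WT it had 1, 10 and 0 reads at 39 °C, against 9, 2 and 5 reads at 23 °C, and the library with no read allows up to 0.265 CPM by a floor of 3 counts (counting error only). In CPM this was 1.27, 1.22 and 0.367 at 39 °C in exa1, against 0.148, 0.227 and 0.191 at 23 °C. HAK5 entered the test of the heat set only through 2 exa1 and 1 WT libraries at 39 °C, so the filter itself favoured a higher 39 °C level. Its log2 response was 2.30 ± 0.74 in exa1 (edgeR adjusted p = 0.00817). Library-total scaling gave 1.44 (0.0806), and limma on log2(FPKM + 1) gave 0.17 (0.119). The exa1 means were 0.2116 FPKM at 39 °C and 0.0774 FPKM at 23 °C. The added 1 outweighs these levels, so 0.17 is not on the scale of 2.30. In WT the log2 response was 0.46 ± 0.88 (0.647), or -0.43 (0.647) with library-total scaling and -2.26 without WT 39 °C replicate 2.

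NHX2 had 73.3, 91.8 and 82.5 CPM at 39 °C in exa1, against 9.24, 7.77 and 9.12 CPM at 23 °C. The WT libraries had 68.4, 66.5 and 69.7 CPM at 39 °C, against 11.0, 9.71 and 11.0 CPM at 23 °C. It rose by 3.25 ± 0.11 in exa1 (edgeR adjusted p = 2.87e-16) and 2.72 ± 0.11 in WT (4.43e-15), and with library-total scaling by 2.37 (1.69e-13) and 1.81 (7.58e-12). NHX1, in contrast, had 39.6, 38.4 and 39.8 CPM at 39 °C in exa1, against 69.7, 63.5 and 65.8 CPM at 23 °C. In WT NHX1 had 34.8, 33.1 and 42.1 CPM at 39 °C, against 72.0, 77.3 and 70.5 CPM at 23 °C. It fell by 0.75 ± 0.09 in exa1 (3e-07) and by 0.97 ± 0.09 in WT (7.68e-09).

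NHX6 averaged 7.65 ± 0.728 CPM at 39 °C and 15.5 ± 0.892 CPM at 23 °C in exa1, and 10.1 ± 0.359 and 17.5 ± 0.963 CPM in WT. It fell by 1.01 ± 0.13 in exa1 (edgeR adjusted p = 3.48e-07) and by 0.76 ± 0.12 in WT (9.12e-06) on the log2 scale. NHX5 averaged 41.6 ± 1.2 CPM at 39 °C and 60.5 ± 2.92 CPM at 23 °C in exa1, and 30.9 ± 2.84 and 59.0 ± 5.74 CPM in WT. It fell by 0.53 ± 0.09 in exa1 (3.02e-05) and by 0.90 ± 0.10 in WT (3.39e-08). AVP1 averaged 637 ± 49.1 CPM at 39 °C and 774 ± 15.8 CPM at 23 °C in exa1, and 701 ± 40.3 and 930.0 ± 74.8 CPM in WT. It fell by 0.27 ± 0.08 in exa1 (0.00523) and by 0.38 ± 0.08 in WT (0.00035). These falls were larger with library-total scaling, for example -1.16 in exa1 and -1.28 in WT for AVP1, so their sizes hold only relative to the scaling.

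**Figure D3:**
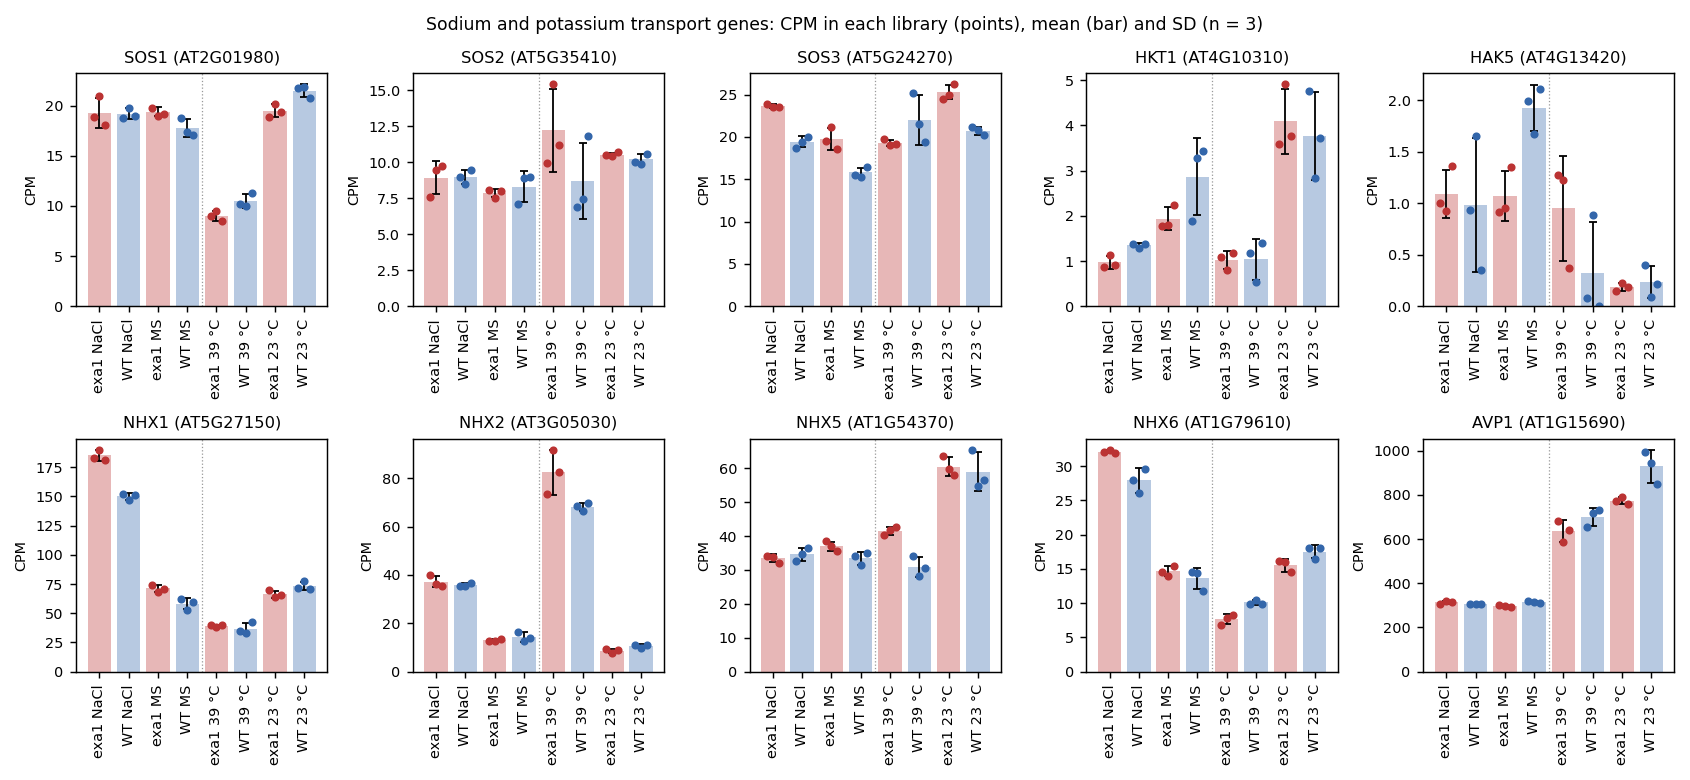
CPM of each gene in each library (points), with the group mean (bar) and SD (n = 3; lower error bars end at 0), exa1 in red left of WT in blue; the dotted line parts the salt set from the heat set. The NaCl groups of NHX1 and NHX6 and the 39 °C groups of NHX2 stand above all other groups of the same gene, and AVP1 is higher in the heat set than in the salt set.

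Across the 8 groups, NHX1 was highest in exa1 with NaCl (185 CPM), then WT with NaCl (150.0 CPM), and lowest in exa1 (39.3 CPM) and WT (36.7 CPM) at 39 °C, whose libraries overlapped. NHX2 was highest in exa1 at 39 °C (82.5 CPM) and then WT at 39 °C (68.2 CPM), followed by the overlapping NaCl groups of exa1 (37.2 CPM) and WT (35.8 CPM). SOS1 was lowest at 39 °C, and its exa1 23 °C, exa1 MS, exa1 NaCl, WT NaCl and WT MS groups each overlapped the next at 17.8 to 19.5 CPM. HKT1 was highest in the overlapping 23 °C groups of exa1 (4.09 CPM) and WT (3.77 CPM). Its WT NaCl, WT 39 °C, exa1 39 °C and exa1 NaCl groups each overlapped the next at 0.974 to 1.35 CPM. The NaCl libraries of WT lay above those of exa1 without overlap. SOS2 was highest in exa1 at 39 °C (12.2 CPM) and lowest in exa1 on MS (7.87 CPM), and most neighbours in its order overlapped. SOS3 was highest in exa1 at 23 °C (25.3 CPM) and lowest in WT on MS (15.8 CPM), also with most neighbours overlapping. NHX5 was highest at 23 °C, at 60.5 CPM in exa1 and 59.0 CPM in WT, which overlapped. NHX6 was highest in exa1 with NaCl (32.1 CPM) and then WT with NaCl (27.9 CPM), without overlap. HAK5 was highest in WT on MS (1.92 CPM), and the other 7 groups overlapped their neighbours.

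The unstressed groups of the sets were not alike for all genes. AVP1 averaged 774 CPM in exa1 and 930.0 CPM in WT at 23 °C, against 297 CPM in exa1 and 315 CPM in WT on MS. NHX5 averaged 60.5 CPM in exa1 and 59.0 CPM in WT at 23 °C, against 37.0 and 33.5 CPM on MS. No test was made across the sets, and the set and the control condition cannot be told apart.

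Between genotypes, exa1 had more NHX1 and SOS3 transcript than WT both on MS and with NaCl, by 1.22- to 1.26-fold. Of the 10 genes, 3 were called higher (NHX1, SOS3 and NHX5) and 3 lower (HKT1, HAK5 and AVP1) in exa1 on MS, where 13.3% of tested genes were higher and 16.0% lower. With NaCl 3 were called higher (NHX1, SOS3 and NHX6) and 0 lower, against 18.6% and 17.2%. At 23 °C edgeR called 0 higher and 0 lower, against 3.28% and 4.26% of tested genes; 3 had an unadjusted p under 0.05, and DESeq2 called 2. At 39 °C 1 was higher (NHX5) and 1 lower (NHX6), against 7.45% and 8.03%.

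NHX1 was higher in exa1 by 0.29 ± 0.04 on MS (edgeR adjusted p = 9.6e-11) and by 0.33 ± 0.03 with NaCl (8.36e-17) on the log2 scale, with no overlap between exa1 and WT libraries in either condition. In the heat set its difference was -0.14 ± 0.09 at 23 °C (0.379) and 0.08 ± 0.10 at 39 °C (0.632). SOS3 was higher in exa1 by 0.33 ± 0.07 on MS (0.000137) and 0.31 ± 0.07 with NaCl (0.000274), again without overlap. At 23 °C the SOS3 libraries of exa1 (24.5, 25.0 and 26.2 CPM) also lay above those of WT (21.2, 20.8 and 20.2 CPM). That difference of 0.29 ± 0.10 did not pass (0.0805), though it did with DESeq2 (0.048) and without WT 39 °C replicate 1 (0.0439). It passed too in a joint fit of all 24 libraries (0.0109). That fit takes a shared spread per gene from both sets, and the salt set was less noisy than the heat set. At 39 °C, SOS3 had a difference of -0.22 ± 0.11 (0.191). The shoot markers summed to 4050 to 4090 CPM in exa1 and 5060 to 5190 CPM in WT on MS, and to 5350 to 5530 CPM in exa1 and 8660 to 8870 CPM in WT with NaCl. Of the 12 shoot markers, 2 were called higher and 4 lower in exa1 on MS, and 3 higher and 5 lower with NaCl. The root markers with NaCl summed to 878 to 898 CPM in exa1 and 811 to 815 CPM in WT. Of these 16 root markers, 3 were called higher and 2 lower in exa1 with NaCl, with a median log2 difference of -0.09. The part of these markers in the genotype differences of the salt set was not tested.

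On MS the calls of the low genes HKT1 and HAK5 were lost when certain single libraries were left out. HKT1 differed by -0.55 ± 0.22 on MS (edgeR adjusted p = 0.0435) with overlapping libraries, since WT replicate 1 had 1.88 CPM, between the exa1 values of 1.78, 1.79 and 2.24 CPM. The HKT1 call was lost without exa1 replicate 1 (-0.50, 0.134), exa1 replicate 2 (-0.50, 0.139), WT replicate 2 (-0.44, 0.219) or WT replicate 3 (-0.41, 0.236), and with DESeq2 (0.0986) and the replicate block (0.0521). HAK5 differed by -0.83 ± 0.28 on MS (0.0164), at 0.911, 0.953 and 1.35 CPM in exa1 and 1.99, 1.67 and 2.11 CPM in WT. Its call was lost without exa1 replicate 1 (0.0802) or 2 (0.0745), without WT replicate 1 (0.0505) or 3 (0.0632), and with DESeq2 (0.0539). On MS the root markers summed to 1650 to 1690 CPM in exa1 and 1850 to 1880 CPM in WT, with 4 of 16 called higher and 2 lower, and their part in these results was not tested.

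NHX5 was 0.15 ± 0.05 higher in exa1 on MS (edgeR adjusted p = 0.0322), a call lost without exa1 replicate 1 (0.157), exa1 replicate 2 (0.0747) or WT replicate 2 (0.248) and with DESeq2 (0.0726). AVP1 was 0.08 ± 0.02 lower on MS (0.00408; 0.403 with all 24 libraries in 1 fit). NHX6 with NaCl was 0.22 ± 0.07 higher (0.00474), at 32.0, 32.4 and 31.9 CPM in exa1 and 27.9, 26.1 and 29.6 CPM in WT; without WT NaCl replicate 2 it was 0.16 (0.0813), and with all 24 libraries in 1 fit 0.20 (0.0876). AVP1 at 23 °C was at -0.26 ± 0.08 and just missed the threshold (edgeR adjusted p = 0.0561). It passed there with DESeq2 (0.0204), without WT 23 °C replicate 3 (-0.33, 0.0353) and without any 1 of 4 of the 39 °C libraries (0.0341 to 0.0414). With NaCl AVP1 had 0.05 ± 0.02 (0.0785; 0.07, 0.0255 without exa1 NaCl replicate 1). NHX2 on MS had -0.14 ± 0.08 (0.166; -0.23, 0.0333 without WT MS replicate 2). SOS1 and SOS2 passed in no condition; at 39 °C SOS2 had 0.47 ± 0.19 (0.0951), which passed without WT replicate 3 (0.76, 0.00481) or exa1 replicate 1 (0.62, 0.034).

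At 39 °C NHX5 had 40.3, 41.9 and 42.6 CPM in exa1, against 34.0, 28.3 and 30.5 CPM in WT. It was higher in exa1 by 0.41 ± 0.10 (edgeR adjusted p = 0.00829), and this call held in every alternative run. NHX6 had 6.84, 7.86 and 8.25 CPM in exa1, against 9.93, 10.5 and 9.81 CPM in WT. Its difference of -0.42 ± 0.14 passed narrowly (0.0419) and missed the threshold in most alternatives, among them DESeq2 (0.0558), the replicate block (0.0576), leaving out any 1 of the 6 libraries at 39 °C (0.0528 to 0.138), and leaving out 4 of the 6 at 23 °C (0.0529 to 0.056). NHX2 had a difference of 0.25 ± 0.10 that did not pass (0.0739), though it did with DESeq2 (0.0394) and without exa1 39 °C replicate 1 (0.35, 0.0164). HAK5 had 1.55 ± 0.77 (0.182), under the same limit of the filter, and 2 of its 3 WT libraries held 1 and 0 reads.

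**Figure D4:**
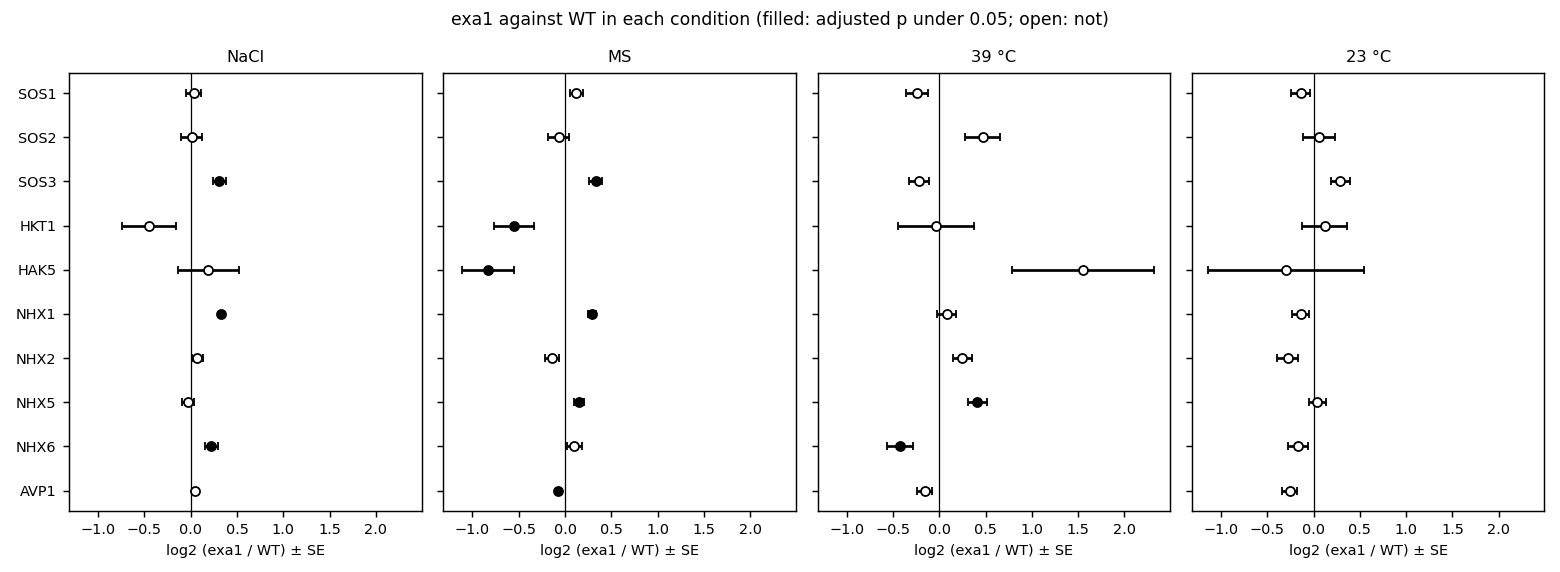
Log2 ratio of exa1 to WT ± SE for each gene with NaCl, on MS, at 39 °C and at 23 °C, filled where the adjusted p was under 0.05. SOS3 and NHX1 lie to the right of 0 in both conditions of the salt set, and HAK5 and HKT1 have the widest errors.

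Interaction terms tested whether exa1 and WT responded unequally. With NaCl 1 gene was called, higher in exa1, and 0 lower, against 11.6% and 9.61% of tested genes. That gene was AVP1, whose signed log2 response (0.05 in exa1, -0.09 in WT) was 0.14 ± 0.03 higher in exa1 (edgeR adjusted p = 0.00107), or 1.1-fold; with all 24 libraries in 1 fit it was 0.12 (0.502). NHX1 had an interaction of 0.03 ± 0.05 (0.712), NHX6 0.12 ± 0.10 (0.481) and NHX2 0.22 ± 0.10 (0.114; 0.31, 0.0257 without WT MS replicate 2). NHX5 had -0.18 ± 0.08 (0.106; -0.23, 0.0407 without WT NaCl replicate 1). HAK5 had 1.02 ± 0.44 (0.0843; 1.61, 0.00797 without WT NaCl replicate 2). Comparisons within a set share libraries, so the response of each genotype and the difference between genotypes are not independent of each other.

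With heat edgeR called 0 genes in either direction, against 0.849% and 0.788% of tested genes, while 3 had an unadjusted p under 0.05 and DESeq2 called 2. NHX2 had an interaction of 0.53 ± 0.15 (edgeR adjusted p = 0.0686), SOS3 -0.51 ± 0.15 (0.0857) and NHX5 0.37 ± 0.13 (0.156). NHX2 (0.0237) and SOS3 (0.0482) passed with DESeq2. With all 24 libraries in 1 fit NHX2 (0.00709), SOS3 (0.0107) and NHX5 (0.0195) passed. NHX2 also passed without exa1 39 °C replicate 1 (0.64, 0.0241) or WT 39 °C replicate 3 (0.57, 0.0299). SOS3 passed without WT 39 °C replicate 3 (-0.57, 0.0227).

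A wider list of 74 ion transport loci gave a setting for these genes, and 73 of them were tested in each set. With NaCl 37 rose and 17 fell in exa1, against 37.1% and 37.9% of all tested genes, and 36 rose and 19 fell in WT, against 36.9% and 37.6%, with a median log2 response of 0.11 in each genotype against -0.01 over all genes. By role, 5 of 9 CBL and CIPK genes rose in each genotype and 1 fell. Of 12 KUP/HAK/KT genes, 8 rose in each, while 3 fell in exa1 and 4 in WT. Of 11 tested CHX and KEA antiporters 6 rose in each, while 4 fell in exa1 and 3 in WT. Of 10 potassium channels 5 rose and 4 fell in exa1, and 4 rose and 5 fell in WT. Of 19 subunits of the vacuolar proton ATPase 9 rose and 3 fell in exa1, and 8 rose and 4 fell in WT, and of 9 other proton pumps 4 rose and 2 fell in each. CIPK11, a kinase of the SOS2 family, had the largest rise among the listed genes above 5 CPM in both genotypes, at 64.5 ± 3.43 CPM with NaCl and 12.0 ± 0.481 CPM on MS in exa1 and 58.2 ± 0.639 and 15.1 ± 0.908 CPM in WT. It rose by 2.40 ± 0.06 in exa1 (edgeR adjusted p = 6.89e-88) and 1.89 ± 0.06 in WT (5.14e-74). KUP9, of the KUP/HAK/KT family of HAK5, rose by 1.80 ± 0.06 and 1.64 ± 0.07. The cation/proton exchanger CHX18 rose by 1.87 ± 0.09 in exa1 and 1.19 ± 0.10 in WT, and AKT2, a potassium channel of the phloem, by 1.41 ± 0.16 in exa1 and 1.79 ± 0.15 in WT. SKOR, which releases potassium into the root xylem, fell, with log2 responses of -3.15 ± 0.23 in exa1 and -2.69 ± 0.21 in WT. CHX16 fell too (-2.66 ± 0.20 and -1.88 ± 0.19), as did KC1, a subunit that modulates root potassium channels (-1.11 ± 0.07 and -1.37 ± 0.08). The root marker sums given for HKT1 were lower in the same libraries as SKOR, and their part was not tested.

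At 39 °C 29 of the 73 rose and 28 fell in exa1, against 36.3% and 39.7% of all tested genes, and 29 rose and 36 fell in WT, against 36.6% and 38.6%. In exa1 these shares were near those of all genes. The subunits of the vacuolar proton ATPase, the other proton pump beside AVP1, were higher in 17 of 19 in exa1 and 18 of 19 in WT with TMM (median 0.80 and 0.78), with 0 and 1 lower. With library-total scaling 5 were higher and 9 lower in exa1, and 5 higher and 8 lower in WT (medians -0.09 and -0.13), so the direction of this list flips with the scaling. Relative to the median of all genes, 19 of 19 lay higher in exa1 and 18 of 19 in WT under either scaling. Of the 12 KUP/HAK/KT genes other than HAK5, 9 fell and 2 rose in exa1 and 10 fell and 2 rose in WT. Of 10 potassium channels 6 fell in exa1 and 7 in WT, and none was called higher. Of 9 CBL and CIPK genes 4 rose in exa1 and 5 in WT, and 2 fell in each. Of 11 CHX and KEA antiporters 4 rose and 5 fell in exa1, and 3 rose and 7 fell in WT.

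By name, CHX18 had the largest rise at 39 °C among the listed genes above 5 CPM, 3.19 ± 0.17 in exa1 (edgeR adjusted p = 7.96e-13) and 2.43 ± 0.17 in WT (7.51e-11). VHA-E3, a subunit of the vacuolar ATPase, rose by 2.18 ± 0.08 and 2.07 ± 0.08, and NHX3, another exchanger of the NHX family, by 2.14 ± 0.31 and 1.95 ± 0.30. CBL10, the calcium sensor that pairs with SOS2 in shoots, had 7.25 ± 0.893 CPM at 39 °C and 40.9 ± 5.53 CPM at 23 °C in exa1, and 7.52 ± 1.36 and 33.6 ± 6.33 CPM in WT. Its log2 responses were -2.49 ± 0.16 in exa1 and -2.12 ± 0.16 in WT, both called. CHX17 fell in both (-2.30 ± 0.23 and -2.33 ± 0.20), as did KUP8 (-1.80 ± 0.12 and -1.88 ± 0.12) and SKOR (-1.49 ± 0.27 and -2.02 ± 0.25). All of these kept their call and direction with library-total scaling, except that KUP8 in WT and SKOR in exa1 were not checked under it.

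Between genotypes 22 of the 73 were higher and 9 lower in exa1 on MS, where 13.3% and 16.0% of all tested genes were. With NaCl they were 25 and 12 (18.6% and 17.2% of all genes), at 23 °C 4 and 4 (3.28% and 4.26%), and at 39 °C 13 and 3 (7.45% and 8.03%). In interaction tests 10 had a higher and 10 a lower signed NaCl response in exa1 (11.6% and 9.61% of all genes), and 4 a higher and 0 a lower heat response (0.849% and 0.788%). KAT1, the inward potassium channel of guard cells, had 7.96 CPM at 39 °C and 9.92 CPM at 23 °C in exa1, and 4.84 and 14.0 CPM in WT. Its heat interaction was 1.20 ± 0.25 (edgeR adjusted p = 0.0184), but 1.12 (0.0618) without exa1 23 °C replicate 2 and 1.06 (0.0526) without WT 23 °C replicate 3. On the log2 scale its heat response was -0.31 ± 0.17 in exa1 (0.102) and -1.50 ± 0.18 in WT (1.61e-07), where KAT1 fell.

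Patterns over the 8 group means were also compared between genes, as a description of 8 points that share their libraries. Among the 10 genes the closest pair was NHX1 and NHX6 (Pearson r = 0.976 on log2(CPM + 0.5)), and the most opposed was HKT1 and NHX2 (r = -0.915). The comparison covered 15811 genes with a mean of at least 5 CPM, and only those with a symbol were named. Most like SOS1 were TAF5 (0.997), UCC2 (0.996) and NF-YA2 (0.995). Most like HKT1 were MYB59 (0.976), ADS1 (0.976) and ATMAP65-6 (0.972), and most like NHX1 were SWI2 (0.994), EMB1290 (0.991) and WRKY19 (0.991). For HAK5, which has few reads, NRPA2 (0.957), TIM13 (0.956) and FAS4 (0.954) came closest.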

How the data were processed

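Strand-specific mRNA libraries from whole seedlings were sequenced in 24 samples, 3 per group, per the labels. HISAT2 (2.0.4), HTSeq (0.6.1p1) and the TAIR10 build are listed in the submitters' processing notes; no source used here gives strand settings. The deposited count table holds whole read counts per gene, not normalized. The deposited FPKM table, per the file headers, holds the same counts divided by a fixed gene length and the library total, as a comparison of both tables showed, and was used for levels per length and for 1 alternative.

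Counts of the 12 libraries of each set were scaled by TMM, filtered by filterByExpr (21759 and 21196 genes left, all 10 members among them) and tested by edgeR 4.0.16 in R 4.3.3 (robust quasi-likelihood), with p-values adjusted by Benjamini-Hochberg over all genes and a threshold of 0.05. SE was taken as the size of a log2 fold change divided by √F. CPM used TMM over all 24 libraries, so ratios of CPM differ slightly from fitted folds. Alternatives were RLE size factors, no filter, the replicate number as a block, DESeq2 1.42.0, limma 3.58.1 on log2(FPKM + 1), all 24 libraries in 1 fit, each library left out, and library-total scaling, which was chosen after seeing the data. Tests were checked on simulated counts. Overlapping genes were read from the TAIR10.1 annotation, and identical runs shared by transcripts were searched with Python 3.11.15. BLAST+ 2.17.0 was used only to search for loci similar to the transcripts, which are not described here. Upstream sequence came from TAIR10.1; the tables hold no coordinates.

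The members, the wider list and the marker lists were chosen with earlier results of these data known. All members were named. Other genes were named where adjusted p was under 0.05, the log2 size at least 1 and the higher mean at least 5 CPM, up to 3 per direction and comparison. Also named were the 3 genes with a symbol that were most like each of SOS1, HKT1, NHX1 and HAK5. No library was left out.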

Additional observations from a re-analysis of the deposited data

Results flagged for a closer look

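Both results here were singled out by a rule on the interaction tests. Any called member was taken, but a wider-list gene only at a log2 size of at least 1 and at least 5 CPM. In the wider list 10 genes had a higher and 10 a lower called NaCl response in exa1, and 4 a higher heat response. All of these but KAT1 were below that size, so the results here are not the only ones that differed. The NaCl response of AVP1 was 0.05 ± 0.02 in exa1 and -0.09 ± 0.02 in WT, a signed difference of 0.14 ± 0.03 on the log2 scale (edgeR adjusted p = 0.00107): in exa1 AVP1 had 305, 321 and 315 CPM with NaCl against 300.0, 297 and 294 CPM on MS, and in WT 308, 307 and 304 CPM against 319, 315 and 310.0 CPM. The difference was 0.12 to 0.16 with any 1 library left out, and with all 24 libraries in 1 fit it did not pass (0.12, adjusted p = 0.502). For KAT1 the heat response was -0.31 ± 0.17 in exa1 and -1.50 ± 0.18 in WT on the log2 scale, so the signed response was 1.20 ± 0.25 higher and the fall smaller in exa1 (edgeR adjusted p = 0.0184). KAT1 was at 7.96 CPM at 39 °C and 9.92 CPM at 23 °C in exa1, against 4.84 and 14.0 CPM in WT. This call was lost without exa1 23 °C replicate 2 (0.0618), without WT 23 °C replicate 3 (0.0526) and with limma on log2(FPKM + 1) (0.0597). Groups of 3 libraries were not tested for a library apart from the others.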

How the results depend on the processing

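Of the 10 counts of members called, those of both salt responses, both heat responses and the genotype difference with NaCl stayed within 1.5 times under every alternative. On MS the 6 calls became 3 with DESeq2, 3 with limma on log2(FPKM + 1), 2 with all 24 libraries in 1 fit and 3 to 6 with 1 library left out. At 23 °C the 0 calls became 1 with library-total scaling, 2 with DESeq2, 1 with FPKM, 2 with all 24 libraries and 0 to 2 with 1 library left out. At 39 °C the 2 calls became 1 with library-total scaling, 1 with no filter, 1 with the replicate block, 1 with FPKM, 4 with all 24 libraries and 1 to 3 with 1 library left out. The 1 interaction with salt became 0 with all 24 libraries and 1 to 2 with 1 library left out, and the 0 interactions with heat became 2 with DESeq2, 3 with all 24 libraries and 0 to 2 with 1 library left out. Library-total scaling and FPKM lack the TMM factors by construction. The FPKM alternative also added 1 before the log, which shrinks differences at low FPKM. The fit of all 24 libraries took a shared spread per gene from both sets, which differed in noise. The part of these settings in the changes, and the cause of the other changes, was not tested.

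Every member value that reversed had missed the threshold in the first place. With library-total scaling and with FPKM, in that order, the reversed log2 values were -0.11 and -0.11 for AVP1 and -0.01 and -0.01 for SOS2 with NaCl in exa1, -0.10 and -0.08 for SOS1 and -0.09 and -0.07 for SOS2 with NaCl in WT, -0.66 and -0.56 for SOS2 with heat in exa1, and -0.79 and -0.63 for SOS3 and -0.43 and -0.03 for HAK5 with heat in WT. With all 24 libraries they were 0.02 for HAK5 with NaCl in exa1 and -0.01 for SOS2 between genotypes with NaCl. With 1 library left out, values that changed sign ranged for HAK5 over -0.66 to 0.29 (genotype, 23 °C), -0.25 to 0.78 (genotype, NaCl), -2.26 to 1.05 (heat, WT) and -0.19 to 0.18 (salt, exa1). For HKT1 they ranged over -0.05 to 0.32 (genotype, 23 °C), -0.33 to 0.25 (genotype, 39 °C), -0.44 to 0.14 (interaction, heat) and -0.05 to 0.34 (interaction, salt). The others were -0.01 to 0.10 for NHX1 (interaction, salt), -0.01 to 0.13 for NHX5 (genotype, 23 °C), -0.03 to 0.06 for SOS1 (genotype, NaCl), -0.10 to 0.01 for SOS1 (salt, exa1), -0.07 to 0.12 for SOS2 (genotype, NaCl), -0.04 to 0.13 for SOS2 (salt, WT) and -0.07 to 0.02 for SOS3 (interaction, salt).

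Replicate numbers gave no steady pairing of the samples. Deviations of same-numbered libraries correlated at -0.0376 to 0.0301 in the salt set and -0.0929 to 0.328 in the heat set. There 1 of 18 pairs was over 0.1, that of exa1 and WT replicate 1 at 39 °C. Differently numbered 39 °C libraries also correlated, at 0.411 for exa1 replicate 2 with WT replicate 3 and at -0.366 for exa1 replicate 2 with WT replicate 1. The replicate block changed 2 of 100 member calls, HKT1 on MS (adjusted p = 0.0521) and NHX6 at 39 °C (0.0576). The 25 values of other named genes kept direction and call under every alternative except KAT1, at 0.79 (adjusted p = 0.0597) with FPKM and 1.03 to 1.32 with 1 library left out. Few reads limit HAK5 and HKT1.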
